A study of Mus musculus with 278 samples.

Results

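The 38 genes described here carry the steps by which mammary epithelium takes up, makes, stores and releases the fat of milk. They were measured by single-cell RNA sequencing in epithelial cells of the mouse mammary gland. The genes were chosen by name, as a list of lipid uptake, fatty acid, triglyceride, sterol and lipid droplet genes. No measured value entered the choice, but earlier results of these data were known when it was made. All 38 were found among the 25140 genes kept. The series holds 278 cells of FVB/NJ mice, each its own library on the Fluidigm C1 platform. Adult basal cells and adult luminal cells had been sorted as lineage-negative CD24+ cells with high or low CD29, whereas the pregnancy cells were total epithelium from mid-pregnancy with no sort by lineage. None of the groups was treated, and no transgene or mutation was named. Cells with 50000 or more reads in kept genes entered: 85 of 112 from the adult basal sort, 41 of 43 from the adult luminal sort and 96 of 123 from pregnancy. The labels tie no cell to an animal, so each group was 1 sample and no test or p-value is given. Intervals are exact and 95% wide, and cover counting error only. Those on reads were drawn on sums over cells and leave out the spread between cells and animals. The reads carry no molecular identifiers, so copies of 1 molecule could not be told apart. No adult cells without a lineage sort were analysed here, so stage and sort cannot be told apart.

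Milk fat is made in luminal alveolar cells, which use fatty acids from the blood and fatty acids built within the cell. Acyl groups are activated to acyl-CoA, joined to glycerol as triglyceride and stored in droplets coated by perilipins. The droplet is then wrapped in apical membrane by butyrophilin and xanthine dehydrogenase and leaves the cell as a milk fat globule. Basal cells of the gland are contractile myoepithelium that pushes milk out and is not the known site of its synthesis. Fatty acid and sterol enzymes are controlled in many tissues by the SREBP transcription factors, whose precursors are held back by Insig proteins.

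Promoter windows were at hand for 25 of the 38 genes, as RefSeq sequence of build GRCm38.p6 from 250 bases before to 50 bases after each start, and 4 are printed to show the promoters of the sterol and fat enzymes side by side. They are those of Hmgcs1 (3-hydroxy-3-methylglutaryl-CoA synthase) at chr13:119690101-119690400 on the plus strand, Acsl1 (an acyl-CoA synthetase) at chr8:46490716-46491015 on the plus strand, Fasn (fatty acid synthase) at chr11:120824498-120824797 on the minus strand and Plin2 (the droplet coat protein perilipin 2) at chr4:86670010-86670309 on the minus strand. The Acsl1 window is the second of the gene. Each is written in the direction of the gene, and capitals mark matches on either strand to TCACNCCAC, the sterol regulatory element that SREBP binds, or to CCAAT, the box bound by NF-Y. Matches that overlap run together.
Hmgcs1: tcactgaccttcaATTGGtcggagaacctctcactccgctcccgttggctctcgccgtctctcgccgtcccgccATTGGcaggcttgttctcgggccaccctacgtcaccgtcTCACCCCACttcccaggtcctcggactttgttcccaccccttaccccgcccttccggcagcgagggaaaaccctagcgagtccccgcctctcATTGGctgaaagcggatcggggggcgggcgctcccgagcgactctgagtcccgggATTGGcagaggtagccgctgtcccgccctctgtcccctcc
Acsl1: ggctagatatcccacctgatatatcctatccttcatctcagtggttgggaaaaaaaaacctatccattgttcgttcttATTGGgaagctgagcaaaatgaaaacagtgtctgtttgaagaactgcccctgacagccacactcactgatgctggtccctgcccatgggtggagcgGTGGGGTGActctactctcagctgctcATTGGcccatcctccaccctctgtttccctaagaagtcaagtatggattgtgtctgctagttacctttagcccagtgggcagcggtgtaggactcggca
Fasn: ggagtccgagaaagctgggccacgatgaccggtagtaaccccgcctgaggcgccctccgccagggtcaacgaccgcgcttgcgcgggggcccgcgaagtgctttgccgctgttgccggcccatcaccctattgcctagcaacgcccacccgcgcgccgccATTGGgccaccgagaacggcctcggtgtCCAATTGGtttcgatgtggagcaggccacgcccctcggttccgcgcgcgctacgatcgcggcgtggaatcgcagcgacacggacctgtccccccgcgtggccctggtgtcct
Plin2: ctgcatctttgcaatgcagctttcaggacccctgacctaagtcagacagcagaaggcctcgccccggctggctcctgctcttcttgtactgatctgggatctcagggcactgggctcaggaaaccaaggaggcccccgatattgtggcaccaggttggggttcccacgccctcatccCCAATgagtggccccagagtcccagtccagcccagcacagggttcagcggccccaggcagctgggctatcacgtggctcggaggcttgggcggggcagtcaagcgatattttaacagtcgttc

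TCACNCCAC occurred in windows of 2 of the 25 genes (8%), Hmgcs1 and Acsl1, and of 1.44% of all 27025 genes with a window. CCAAT occurred for 17 of the 25 (68%) and for 41.1% of all genes. TTCNNNGAA, the site of STAT factors, occurred for 0 of the 25 and for 9.55% of all genes. Such letters are a description of these windows and not a measure of binding. Scd1, Scd2, Lpl, Fabp4, Fabp5, Xdh, Btn1a1, Cidea, Dgat1, Dgat2, Sqle, Fdft1 and Fads1 had no window.

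Retained cells held a median of 379076 reads in adult basal, 638595 in adult luminal and 215398 in pregnancy cells, so single pregnancy cells had the least depth. To put cells on 1 depth, each was thinned to 50000 reads before genes or markers were counted as present in it. Pregnancy cells were divided by marker content alone, with basal content as 1 or more reads of both Krt14 and Acta2 and luminal content as 4 or more of 8 luminal markers. This gave 25 basal-marked cells (26.0%, interval 17.6 to 36.0), 41 both-marked cells (42.7%, 32.7 to 53.2), 26 luminal-marked cells (27.1%, 18.5 to 37.1) and 4 with neither. These are ranges of marker content and not cell types, and 7 pregnancy cells sat at the limit of 4 luminal markers and 10 at 3. In the adult sorts, 84 of 85 basal cells had both basal markers and 40 of 41 luminal cells had luminal content. Of 9 other basal markers that the rule did not use, the median cell held 8 in basal-marked, 7 in both-marked and 1 in luminal-marked cells, and 8 in adult basal and 0 in adult luminal cells. Of the 2 markers of the rule, thinned luminal-marked cells held Krt14 in 17 of 26 and Acta2 in 3 of 26. Adult luminal cells held them in 8 and 1 of 41. Without thinning, 14 of the 26 luminal-marked cells had a read of Acta2, so the line to both-marked cells depends on depth. Whether a both-marked library held 1 cell or 2 was not tested here. The paper states that capture sites were viewed before sequencing and held single cells. At 50000 reads, both-marked cells showed a median of 3624 genes, against 3004 in basal-marked and 3072 in luminal-marked cells.

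Markers of cells outside the epithelium touched some of the lipid genes. Markers of endothelial, fibroblast, immune, pericyte and erythroid cells were counted, with 3 or more of a type as the limit. One adult basal cell passed it, as did 6 of the 41 adult luminal and 22 of the 96 pregnancy cells. In pregnancy 11 cells did so for endothelial and 11 for fibroblast markers, 4 for pericyte, 3 for immune and 1 for erythroid markers. A cell could pass for more than 1 type. The 22 cells lay in all 4 classes, with 7 basal-marked, 6 both-marked, 5 luminal-marked and all 4 of neither. Of 6 adipocyte markers, Adipoq, Plin1, Cidec and Retn were at 0 in every thinned cell, while Lep lay in 3 adult basal cells and 1 pregnancy cell and Cfd in 4 pregnancy cells. No cell held 3 or more of the 6. A division of the pregnancy cells at title number 55, taken from earlier results of these data and not from the labels, is also given where it moved a value. Milk genes took 8.88% of reads in the 45 cells up to number 55 and 31.4% in the 51 cells above it. Up to it lay 15 basal-marked, 17 both-marked and 10 luminal-marked cells, and above it 10, 24 and 16. Ratios within a division thus rest on few cells.

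As a whole, the 38 genes took the smallest share of reads in adult basal cells and the largest in luminal-marked pregnancy cells. Their share of the summed reads was 0.171% in the adult basal group (0.169 to 0.172). In the adult luminal group it was 0.398% (0.396 to 0.401), and over all pregnancy cells 1.05% (1.04 to 1.05). Within pregnancy the share was 0.345% in basal-marked, 0.972% in both-marked and 1.52% in luminal-marked cells. Single cells spread widely. Adult basal cells ran from 0 to 0.648% with a median of 0.155%, and adult luminal cells from 0.0326% to 2.24% with a median of 0.270%. The pregnancy range was 0.105% to 3.92%, with a median of 0.716%. The 3 groups therefore overlapped cell by cell. With milk genes left out of the total, the pregnancy share was 1.36%.

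More of the genes were also present in each cell. At 50000 reads the median adult basal cell held reads of 5 of the 38 genes (range 0 to 15), the median adult luminal cell 12 (4 to 24) and the median pregnancy cell 17.5 (4 to 30). Basal-marked pregnancy cells held a median of 10, both-marked cells 21 and luminal-marked cells 20. Over all kept genes, the median thinned cell showed 2275 genes in adult basal, 3447 in adult luminal and 3232 in pregnancy cells. Adult basal cells thus also showed fewer genes of any kind. Without thinning the medians of the 3 groups for the lipid genes were 7, 16 and 21. The both-marked and luminal-marked cells thus differed little in how many of the genes they held, while the basal-marked cells lay nearer to the adult luminal cells.

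**Figure D1:**
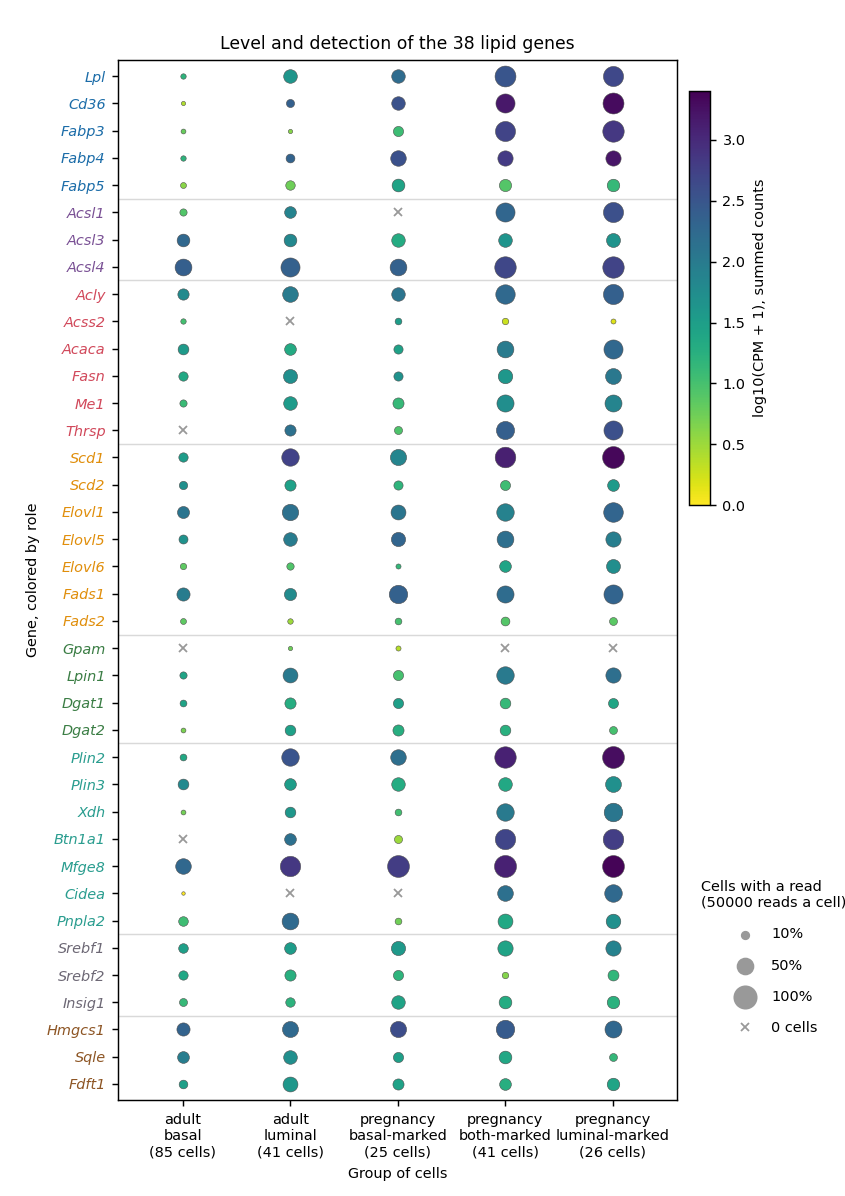
Each row is 1 of the 38 lipid genes, colored by role, and each column a group of cells with its number. Dot color gives log10(CPM + 1) of the summed counts, where CPM is reads for every 1000000 reads in kept genes, and dot area the percent of cells with a read at 50000 reads a cell, with a cross where no thinned cell had one. Plin2, Mfge8, Scd1, Cd36 and Fabp3 show large dark dots in the both-marked and luminal-marked columns, while Btn1a1 and Thrsp are crosses in adult basal cells. The 4 cells with neither content are not drawn.

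The 4 comparisons were drawn from summed counts, and a gene was called higher or lower where its CPM (reads of a gene for every 1000000 reads in kept genes) differed by 2-fold or more (a log2 ratio of 1 or more, or of -1 or less). Genes with 1 CPM or more in 3 or more cells formed the background, which held 15316 genes including all 38. A gene with no read in 1 group was set against a floor of 3 reads over that group, and its ratio is a bound. Comparisons that share a group of cells are not independent of each other. In such sums, fewer cells with a gene and less of its RNA in each cell cannot be told apart, so the number of cells with a read is given as well.

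Between the adult sorts, Btn1a1, Thrsp, Cd36, Pnpla2 and Scd1 had the highest luminal ratios and the acyl-CoA synthetase gene Acsl3 the lowest among genes with 20 CPM or more. Of the adult luminal Cd36 reads 93.0% lay in the 6 cells with markers of other types. Of the 38 genes 18 were higher in adult luminal cells, beside 36% of the background, and 3 were lower, beside 23.9%. The median log2 ratio of the 38 was 0.69, against 0.35 over all genes. Under TMM scaling, which moved every ratio by -0.30, the counts were 16 higher and 9 lower, beside 31.3% and 28.0% of all genes. By role, 6 of 7 droplet and globule genes, 3 of 4 triglyceride genes and 3 of 5 uptake genes were higher, whereas none of the 3 regulators or 3 sterol genes passed 2-fold in either direction. Under TMM scaling Sqle did, at a log2 ratio of -1.17.

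From adult luminal cells to luminal-marked pregnancy cells, the highest ratios at 20 CPM or more were those of Cidea, Fabp3, Lpl, Acaca and Cd36, and the lowest those of Sqle, Pnpla2 and Dgat2. Of the 38 genes 23 were higher, beside 17.2% of the background, and 4 were lower, beside 42.8%. The median log2 ratio was 1.22, against -0.75 over all genes. TMM scaling moved every ratio by 0.65, to a median of 1.87, against -0.10 over all genes. It gave 27 higher and 4 lower, beside 24.7% and 27.9% of all genes. With only pregnancy cells above title number 55, 9 were lower, beside 57.1% of all genes. All 5 uptake genes and all 6 fatty acid synthesis genes counted as higher. Among them Acss2 had 3 and 5 reads with an interval on both sides of 0, and most Fabp4 reads lay in cells with markers of other types. Among the 4 triglyceride genes none was higher and 2 were lower, Dgat2 and Gpam, whereas Lpin1 and Dgat1 were higher under TMM scaling. Gpam had 1 read in luminal-marked cells against 115 in adult luminal cells, nearly all in 1 cell. Of the 3 sterol genes none was higher and Sqle was lower.

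Basal-marked pregnancy cells also held more of several of these genes than adult basal cells did, but 1 cell often carried the difference. Of 37 genes with a ratio 20 were higher, beside 29.1% of the background, and 7 were lower, beside 25.3%, with a median log2 ratio of 1.06 against 0.01 over all genes. Cidea had no ratio, with 2 reads in adult basal and none in basal-marked cells. With the highest cell of each gene left out of both groups the counts were 14 higher and 11 lower, beside 22.5% and 32.0% of all genes. Among pregnancy cells up to title number 55 the counts were 13 and 7, beside 29.6% and 27.4%. Above it they were 14 and 14, beside 21.0% and 41.0%. TMM scaling, which moved every ratio by -0.13, gave 14 higher and 7 lower, beside 27.1% and 27.7% of all genes. All 5 uptake genes were higher in the full comparison, and the acyl-CoA synthetases Acsl1 and Acsl3 were lower.

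Within pregnancy, all 7 droplet and globule genes were higher in luminal-marked than in basal-marked cells when all cells were summed. Up to title number 55 Mfge8 was not, at a log2 ratio of -0.41, and above it Plin3 was within 2-fold, at 0.66. Of the 38 genes 23 were higher, beside 22.9% of the background, and 6 were lower, beside 38.1%. The median log2 ratio was 1.24, against -0.45 over all genes. TMM scaling, which moved every ratio by 0.50, gave 25 higher and 2 lower, beside 30.3% and 29.9% of all genes. Leaving milk genes out of the total gave the same counts, beside 29.8% and 30.2%. The 6 lower genes were Fabp5, Acss2, Elovl5, Gpam, Hmgcs1 and Sqle, of which Fabp5, Elovl5, Hmgcs1 and Sqle were within 2-fold under TMM scaling.

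**Figure D2:**
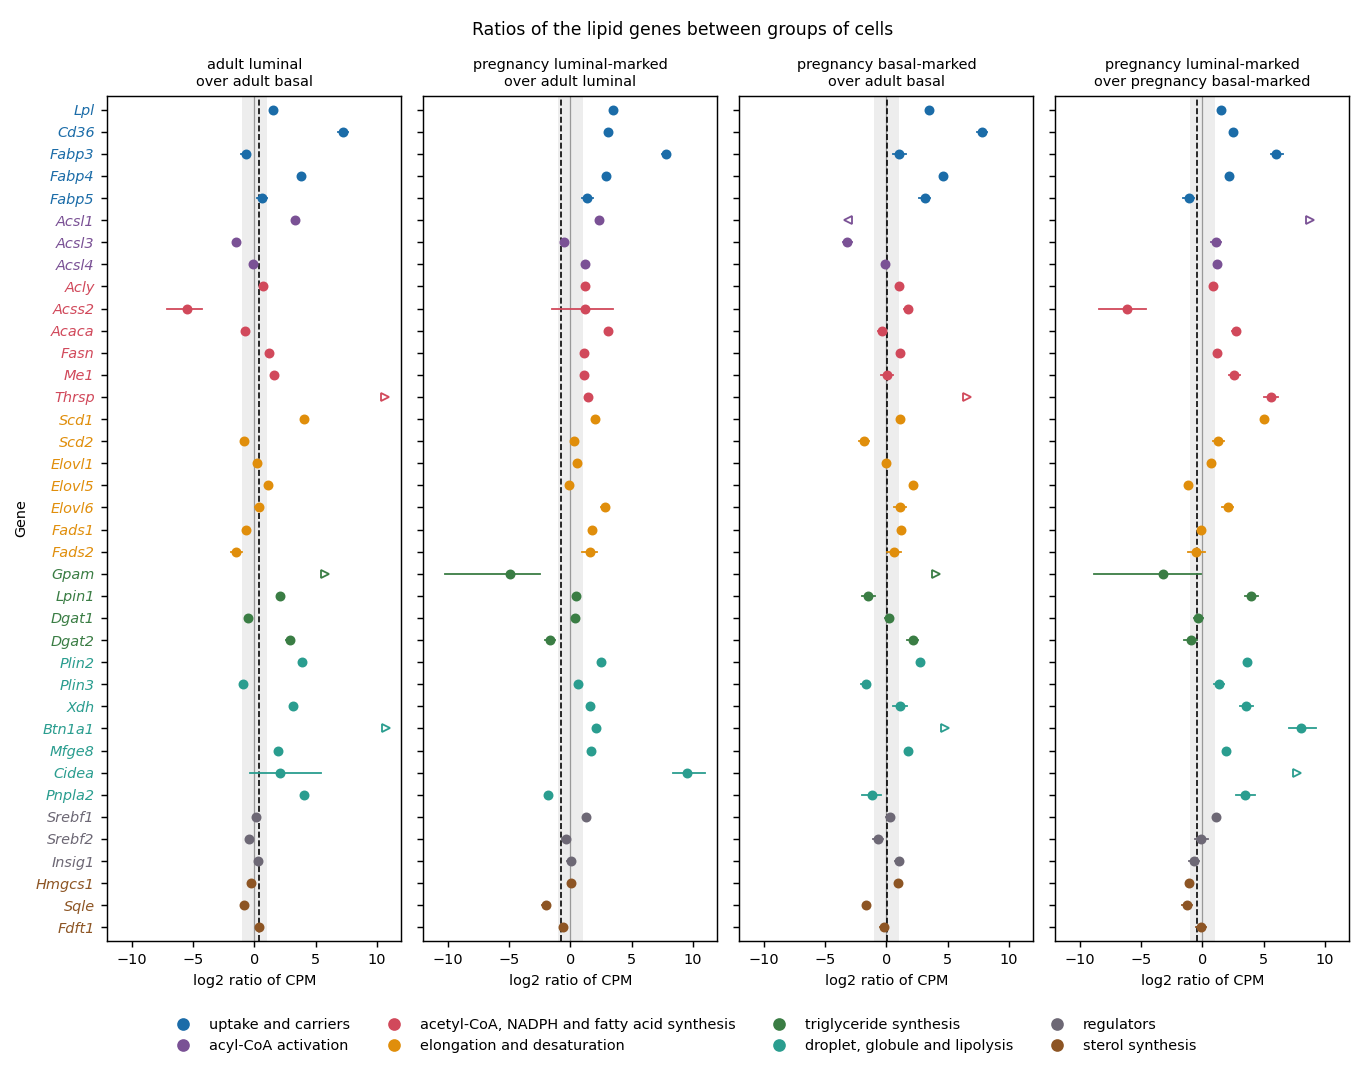
Each panel is 1 comparison, with the log2 ratio of CPM on the horizontal axis and the 38 genes, colored by role, on the vertical axis. Bars are 95% counting intervals, open triangles are bounds where 1 group had no read, the dashed line is the median of all background genes and the gray band is the 2-fold range. The points of the 7 droplet and globule genes all lie to the right of the band in the panel of luminal-marked over basal-marked cells. Cidea has no point in the third panel.

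The droplet and globule genes went mainly with luminal content. Btn1a1 encodes butyrophilin, which anchors the droplet to the apical membrane, and lies at chr13:23456984-23465914 of GRCm38. It had 0 reads in all 85 adult basal cells, which allows up to 0.0839 CPM, against 142 CPM (137 to 147) in adult luminal cells. Its reads lay in 11 of the 41 adult luminal cells, with a median of 0 and a highest cell of 1330 CPM, and 42.3% of them lay in the 6 cells with markers of other types. In pregnancy Btn1a1 stood at 2.27 CPM in basal-marked cells, from 8 reads in 3 of 25 cells, at 502 CPM in both-marked cells and at 611 CPM (592 to 630) in luminal-marked cells. Reads lay in 34 of 41 both-marked and 22 of 26 luminal-marked cells, with medians of 269 and 381 CPM and highest cells of 2138 and 1911 CPM. Luminal-marked cells held 269.7-fold more than basal-marked cells and 4.30-fold more than adult luminal cells, and adult luminal cells held at least 1693-fold more than adult basal cells. The adult signal thus came from a minority of the luminal cells, and in pregnancy most cells with luminal content carried the gene.

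Plin2, the perilipin that coats cytoplasmic droplets, was present in nearly all luminal-marked cells. Its level was 21.8 CPM in adult basal, 327 CPM (320.4 to 335) in adult luminal, 149 CPM in basal-marked, 1223 CPM in both-marked and 1908 CPM (1875 to 1941) in luminal-marked cells. The median adult basal cell was at 0 with a highest cell of 718 CPM, the median adult luminal cell at 42.8 with a highest of 3276, and the median luminal-marked cell at 1697 with a highest of 5093. Plin2 was present in 7 of 85 adult basal, 25 of 41 adult luminal, 12 of 25 basal-marked, 38 of 41 both-marked and 25 of 26 luminal-marked cells. Its level was 15.0-fold higher in adult luminal than in adult basal cells, 5.83-fold higher in luminal-marked than in adult luminal cells and 12.8-fold higher in luminal-marked than in basal-marked cells. One adult basal cell, number 29, held 59.9% of that group's reads, and without it and the highest luminal cell the first of these was 31.6-fold. Basal-marked cells were 6.83-fold above adult basal cells, and 13.5-fold without the highest cell of each group.

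Xdh encodes the xanthine dehydrogenase that binds butyrophilin on the globule. It had 4.36 CPM in adult basal, 38.9 in adult luminal, 9.63 in basal-marked, 100.4 in both-marked and 116 CPM in luminal-marked cells. It was present in 3, 9, 2, 25 and 18 cells of these groups. Its luminal-marked level was 2.98-fold that of adult luminal and 12.1-fold that of basal-marked cells. In basal-marked cells 91.2% of the reads lay in cell number 87, and without the highest cells the ratio to adult basal cells turned from 2.21-fold higher to 2.54-fold lower.

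Cidea, a protein of droplet fusion and enlargement, had the highest ratio of luminal-marked to adult luminal cells among the 38 genes. There were 2 reads in adult basal cells, 6 in adult luminal cells and none in basal-marked cells, where 0 allows up to 0.85 CPM. In both-marked cells Cidea reached 142 CPM and in luminal-marked cells 175 CPM (165 to 185). Reads lay in 20 of 41 both-marked and 16 of 26 luminal-marked cells, with medians of 8.02 and 45.1 CPM and highest cells of 713 and 1274 CPM. The luminal-marked level was 725-fold that of adult luminal cells, a ratio that rests on the 6 adult reads, all in 1 cell. It was at least 206-fold above basal-marked cells.

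Mfge8, the milk fat globule protein lactadherin, was widely present and not restricted to cells with luminal content. It stood at 184 CPM in adult basal, 707 in adult luminal, 621 in basal-marked, 1225 in both-marked and 2314 CPM (2278 to 2351) in luminal-marked cells. Cells with a read numbered 41 of 85, 34 of 41, 24 of 25, 40 of 41 and 25 of 26 cells. The medians were 20.8, 303, 458, 529 and 1729 CPM, and the highest adult luminal cell, number 17, reached 14710 CPM (14709.5). The luminal-marked level was 3.28-fold that of adult luminal cells and 3.73-fold that of basal-marked cells. This difference was uneven over the pregnancy cells. Up to title number 55 luminal-marked cells held 526 CPM and above it 3257 CPM, so that their log2 ratio to adult luminal cells was -0.42 in the first and 2.20 in the second, and to basal-marked cells -0.41 and 2.69.

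The other droplet genes were Plin3 and Pnpla2. Plin3, a perilipin found in most tissues, was lower in adult luminal (32.6 CPM) than in adult basal cells (62.3 CPM). The difference was less than 2-fold, but more than 2-fold under TMM scaling. Plin3 was 3.19-fold lower in basal-marked (19.5 CPM) than in adult basal cells. Luminal-marked cells held 50.1 CPM, of which 49.6% lay in cell number 59. Pnpla2, the triglyceride lipase that opens lipolysis, was lower in luminal-marked than in adult luminal cells. It stood at 10.2 CPM in adult basal, 174 in adult luminal, 4.53 in basal-marked, 21.7 in both-marked and 49.2 CPM in luminal-marked cells. It was thus 17.0-fold higher in adult luminal than in adult basal cells and 3.53-fold lower in luminal-marked pregnancy cells than in adult luminal cells, with 23 of 41 adult luminal and 11 of 26 luminal-marked cells holding a read. Within pregnancy it was 10.9-fold higher in luminal-marked than in basal-marked cells.

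**Figure D3:**
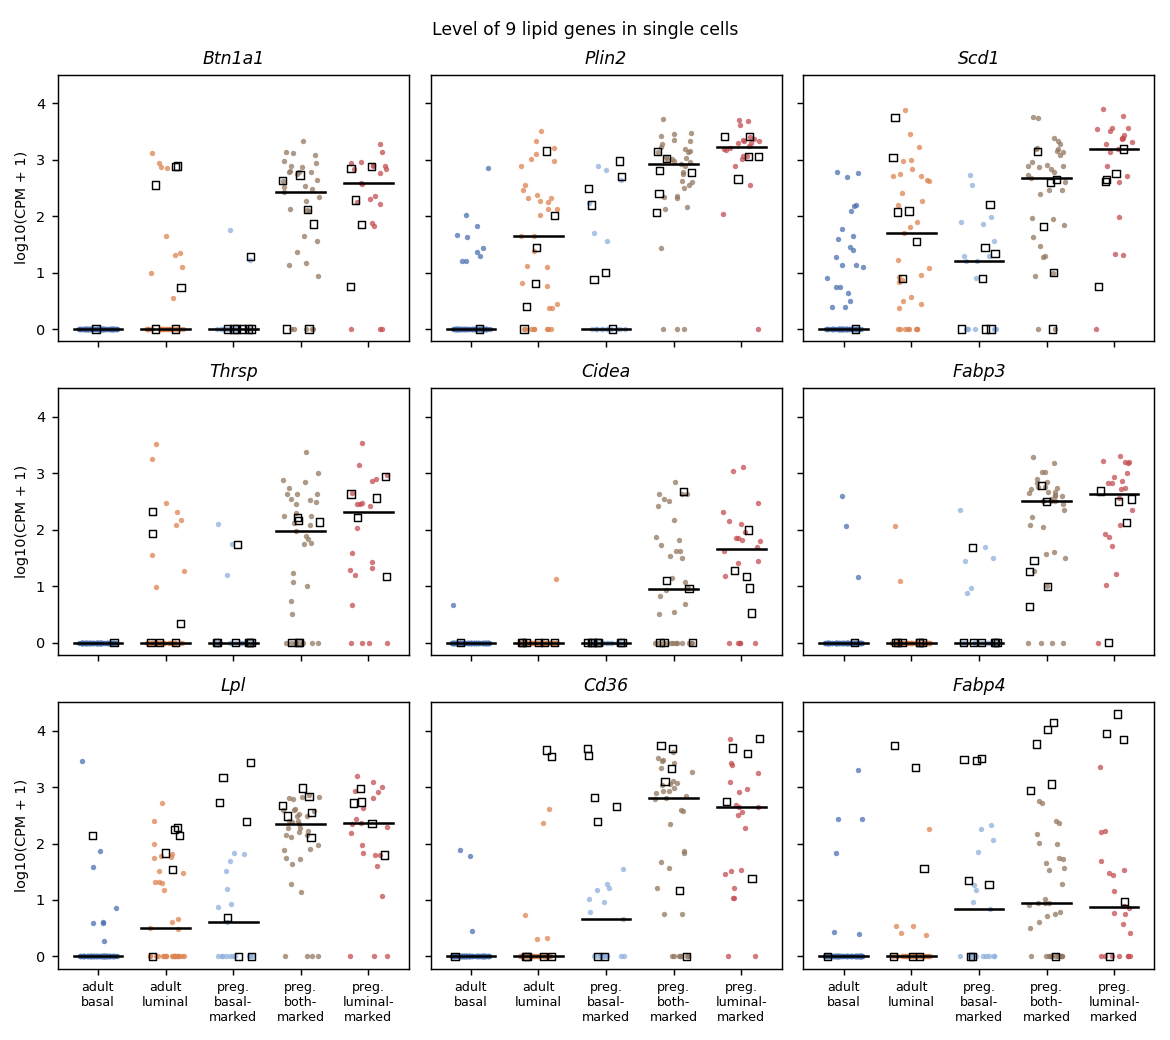
Each point is 1 cell, with log10(CPM + 1) on the vertical axis and the group on the horizontal axis (preg. stands for pregnancy). Bars are medians, and open squares are cells with 3 or more markers of a cell type outside the epithelium. Btn1a1, Plin2, Scd1 and Fabp3 fill the both-marked and luminal-marked groups, whereas the highest points of Fabp4 are nearly all squares.

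Among the uptake genes, Fabp3 had the highest ratios of luminal-marked cells to both adult luminal and basal-marked cells. It encodes the heart-type fatty acid binding protein and lies at chr4:130308738-130315463 of GRCm38. It stood at 5.14 CPM in adult basal and 3.14 CPM in adult luminal cells, present in 3 of 85 and 1 of 41 cells. In pregnancy it was at 10.8 CPM in basal-marked, 515 CPM in both-marked and 708 CPM (688 to 729) in luminal-marked cells, present in 5 of 25, 33 of 41 and 24 of 26 cells. The median luminal-marked cell held 428 CPM and the highest 2036. Luminal-marked cells were 226-fold above adult luminal cells and 65.8-fold above basal-marked cells. In adult luminal cells 94.9% of the reads lay in cell number 38, so the first of these ratios rests on few reads.

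Lpl, the lipoprotein lipase that frees fatty acids from blood triglyceride, was higher in luminal-marked than in adult luminal cells in both title divisions. It stood at 14.8 CPM in adult basal, 41.4 in adult luminal, 162 in basal-marked, 316 in both-marked and 456 CPM (440.2 to 473) in luminal-marked cells. Cells with a read numbered 4 of 85, 15 of 41, 9 of 25, 36 of 41 and 21 of 26 cells, with medians of 0, 2.22, 3.15, 220.2 and 226 CPM. Luminal-marked cells held 11.0-fold more than adult luminal cells, and 14.9-fold more where cells with markers of other types were left out. Basal-marked cells held 10.9-fold more than adult basal cells, but 1.43-fold more without those cells, and the log2 ratio was 4.15 up to title number 55 and -0.80 above it. Adult basal cell number 7 held 79.2% of the adult basal reads, and without it the group stood at 3.09 CPM. Basal-marked cell number 50, which carried markers of another type, held 52.7% of its group's reads.

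Cd36, a fatty acid translocase that endothelial cells and adipocytes also express, was higher in luminal-marked cells with and without cells of other markers. It stood at 1.54 CPM in adult basal, 231 in adult luminal, 348 in basal-marked, 1499 in both-marked and 1998 CPM (1965 to 2033) in luminal-marked cells. Only 5 of 41 adult luminal cells held it, and cell number 43, which carried markers of another type, had 52.9% of their reads. The 6 adult luminal cells with such markers together held 93.0%. It was present in 30 of 41 both-marked and 23 of 26 luminal-marked cells, with medians of 638 and 446 CPM. Luminal-marked cells were 8.65-fold above adult luminal cells, and 82.7-fold above without the cells that carried other markers. Basal-marked cells were 227-fold above adult basal cells, and 4.23-fold above without them, where their level was 6.60 CPM. Cell number 62, which also carried markers of another type, held 57.2% of the basal-marked reads. Luminal-marked cell number 107, without such markers, held 33.6% of its group's reads.

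Fabp4, the adipocyte fatty acid binding protein, which capillary endothelium also makes, was carried in adult luminal and pregnancy cells mainly by those with endothelial markers. Its level was 15.0 CPM in adult basal, 211 in adult luminal, 359 in basal-marked, 652 in both-marked and 1620 CPM (1619.99) in luminal-marked cells. The medians were 0, 0, 5.97, 7.90 and 6.47 CPM, and it was present in 12 of 25, 19 of 41 and 12 of 26 of the pregnancy classes. At a level of 1000 CPM or more, a limit set after the values were seen, there were 13 pregnancy cells, of which 12 carried markers of another type. Endothelial markers passed the limit in 11 of the 13 and fibroblast markers in 4. In adult luminal cells 2 reached that level, and each passed for endothelial and for fibroblast markers. The 1 adult basal cell at that level passed for neither. There were 11 pregnancy cells with endothelial markers in all. The 22 pregnancy cells with markers of another type held 94.0% of the Fabp4 reads, 36.6% of the Cd36 reads, 27.4% of the Lpl reads, 13.5% of the Plin2 reads, 7.88% of the Btn1a1 reads and 6.18% of the Fabp3 reads. Without such cells Fabp4 stood at 3.70 CPM in adult luminal, 15.2 in adult basal and 118 CPM in luminal-marked cells, and the adult luminal ratio turned from 14.1-fold higher to 4.10-fold lower. One luminal-marked cell then held 89.3% of the reads.

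Fabp5, the epidermal fatty acid binding protein, stayed low, at 2.99 CPM in adult basal, 4.63 in adult luminal, 26.1 in basal-marked, 7.05 in both-marked and 12.1 CPM in luminal-marked cells. It was 2.15-fold lower in luminal-marked than in basal-marked cells, where cell number 86 held 54.3% of the reads. Without the highest cells the difference was 1.48-fold. With luminal content set at 3 markers, the log2 ratio of luminal-marked to basal-marked cells turned from -1.10 to 1.42. Per kilobase of gene length, the only scale on which genes can be set against each other, the highest levels in luminal-marked cells were those of Fabp4 at 2523 RPKM, Fabp3 at 1106, Mfge8 at 1089, Plin2 at 1011 and Cd36 at 509 RPKM. Without cells with markers of other types Fabp4 stood at 184 RPKM, below Fabp3 at 1295, Mfge8 at 1259, Plin2 at 1060 (1059.86) and Cd36 at 399.9 RPKM. In adult basal cells the order was led by Mfge8 at 86.6, Hmgcs1 at 65.1 and Elovl1 at 63.9 RPKM, and Elovl1 and Hmgcs1 differed little.

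Of the acyl-CoA synthetases, which activate fatty acids for esterification, Acsl1 went with luminal content and Acsl3 with adult basal cells. Acsl1 stood at 7.49 CPM in adult basal, 74.7 in adult luminal, 194 in both-marked and 369 CPM (355 to 384) in luminal-marked cells, and had 0 reads in all 25 basal-marked cells, which allows up to 0.85 CPM. It was present in 8 of 85, 11 of 41, 30 of 41 and 21 of 26 cells of the groups that held it, with luminal-marked cells from 0 to 2080 CPM (2080.3) and a median of 200.4 CPM. The luminal-marked level was 4.94-fold that of adult luminal cells and at least 434-fold that of basal-marked cells. Acsl3 stood at 182 CPM in adult basal, 63.9 in adult luminal, 20.1 in basal-marked, 42.2 in both-marked and 43.7 CPM in luminal-marked cells. It was 2.85-fold lower in adult luminal and 9.05-fold lower in basal-marked than in adult basal cells, and present in 27 of 85, 13 of 41 and 9 of 25 cells of these groups. Acsl4, which prefers arachidonic acid, was at 243, 225, 228, 468 and 525 CPM, and was 2.33-fold higher in luminal-marked than in adult luminal cells.

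Of the 6 fatty acid synthesis genes, Acaca, Acly and Thrsp were more than 2-fold higher in luminal-marked than in adult luminal cells with and without the highest cells. Fasn and Me1 were 2.12-fold higher with them and 1.47-fold and 1.94-fold without, and Acss2 had too few reads to give a direction. Acaca, acetyl-CoA carboxylase and the first committed step, had the highest ratio of the 6. It stood at 35.1 CPM in adult basal, 20.9 in adult luminal, 27.2 in basal-marked, 99.1 in both-marked and 181 CPM (171 to 192) in luminal-marked cells. It was 8.66-fold higher in luminal-marked than in adult luminal cells, with a read in 11 of 41 and 19 of 26 cells, medians of 0 and 62.4 CPM and highest cells of 236 and 741 CPM. Acly, ATP citrate lyase, which makes cytosolic acetyl-CoA, stood at 59.5, 99.6, 124, 177 and 233 CPM in the 5 groups, and was 2.33-fold higher in luminal-marked than in adult luminal cells. In basal-marked cells 50.2% of the Acly reads lay in cell number 10. Its log2 ratio of basal-marked to adult basal cells was 1.79 up to title number 55 and -5.39 above it.

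Fasn, the synthase itself, was low throughout and its pregnancy level leaned on single cells. It stood at 21.7 CPM in adult basal, 50.8 in adult luminal, 46.7 in basal-marked, 38.3 in both-marked and 108 CPM (99.9 to 116) in luminal-marked cells. Luminal-marked cells held 2.12-fold more than adult luminal cells, with a read in 13 of 26 and 16 of 41 cells and medians of 33.6 and 1.39 CPM. Cell number 31 held 40.6% of the luminal-marked reads, and without the highest cells the ratio was 1.47-fold. In basal-marked cells cell number 102 held 87.9% of the reads. The basal-marked level was 2.15-fold that of adult basal cells with it, and 2.53-fold lower without the highest cells.

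Thrsp, a nuclear protein tied to lipogenesis in liver, fat and the lactating gland, had among the highest ratios of adult luminal to adult basal cells. It had 0 reads in adult basal cells, 138 CPM in adult luminal, 7.93 in basal-marked, 238 in both-marked and 375 CPM (361 to 390.2) in luminal-marked cells. It was present in 10 of 41 adult luminal, 3 of 25 basal-marked, 27 of 41 both-marked and 19 of 26 luminal-marked cells. All 10 adult luminal cells with Thrsp also held Csn2, the beta-casein gene, which was present in 18 of the 41. The luminal-marked level was 2.71-fold that of adult luminal and 47.3-fold that of basal-marked cells, while adult luminal cells held at least 1651-fold more than adult basal cells. Me1, malic enzyme, which supplies NADPH, was at 11.5, 34.6, 12.2, 52.5 and 73.3 CPM. Acss2, which makes acetyl-CoA from acetate, was at 9.28, 0.201, 32.3, 0.892 and 0.449 CPM, and its ratio of luminal-marked to adult luminal cells rests on 3 and 5 reads. It was 72.0-fold lower in luminal-marked than in basal-marked cells. Basal-marked cell number 13, which carried markers of another type, held 76.3% of the basal-marked Acss2 reads, and without the highest cells the ratio was 17.6-fold.

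Scd1, the stearoyl-CoA desaturase that makes oleic acid, led the elongation and desaturation genes in adult luminal, both-marked and luminal-marked cells. In adult basal and basal-marked cells it lay below Elovl1, Elovl5 and Fads1. It stood at 33.0 CPM in adult basal, 541 in adult luminal (531 to 550), 69.4 in basal-marked, 1263 in both-marked and 2221 CPM (2185 to 2257) in luminal-marked cells. Cells with a read numbered 14 of 85, 25 of 41, 13 of 25, 35 of 41 and 25 of 26 cells, with medians of 0, 48.8, 14.8, 466 and 1547 CPM and highest cells of 609, 7500, 537, 5772 and 7844 CPM. Adult luminal cells held 16.4-fold more than adult basal cells, luminal-marked cells 4.11-fold more than adult luminal cells and 32.0-fold more than basal-marked cells. The highest adult luminal cell was close to the highest luminal-marked cell, and the groups overlapped. Scd2, its paralog, was higher in adult basal than in adult luminal cells by less than 2-fold, but by more than 2-fold under TMM scaling. Its level was 49.9 CPM in adult basal, 28.2 in adult luminal, 14.4 in basal-marked, 10.4 in both-marked and 35.0 CPM in luminal-marked cells. It was 3.45-fold lower in basal-marked than in adult basal cells. Reads of the 2 neighboring paralogs could be split between them by the mapping, which was not tested.

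Of the elongases and other desaturases, Elovl6, which lengthens palmitate, was at 5.90, 7.64, 12.7, 25.1 and 52.9 CPM from adult basal to luminal-marked cells, 6.93-fold higher in luminal-marked than in adult luminal cells, and in basal-marked cells all of its reads lay in 1 cell. Elovl1, an elongase of very long chains, was at 122, 139, 119, 77.2 and 198 CPM, within 2-fold in all 4 comparisons, although under TMM scaling its log2 ratios of luminal-marked to adult luminal and to basal-marked cells were 1.16 and 1.24. Elovl5, which lengthens polyunsaturated chains, was highest in basal-marked cells at 199 CPM, 4.40-fold above the adult basal level of 45.3 CPM and 2.21-fold above the luminal-marked level of 90.3 CPM. Its log2 ratio of luminal-marked to basal-marked cells was 0.12 up to title number 55 and -2.83 above it. Fads1, the delta-5 desaturase, was at 96.0, 58.8, 224, 163 and 206 CPM, 3.50-fold higher in luminal-marked than in adult luminal cells and 2.34-fold higher in basal-marked than in adult basal cells. Fads2, the delta-6 desaturase, stayed at 9.06 CPM or less in all 5 groups.

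None of the triglyceride synthesis genes was 2-fold higher in luminal-marked than in adult luminal cells, although Lpin1 and Dgat1 were under TMM scaling, at log2 ratios of 1.10 and 1.06. Lpin1, a phosphatidate phosphatase, was at 25.0 CPM in adult basal, 107 in adult luminal, 9.06 in basal-marked, 103 in both-marked and 145 CPM in luminal-marked cells, with a luminal-marked level 1.36-fold that of adult luminal and 16.0-fold that of basal-marked cells. Dgat1 and Dgat2, which add the last acyl chain, stood at 30.0 CPM or less in every group. Dgat1 was at 25.5, 18.1, 30.0, 12.2 and 24.1 CPM in the 5 groups. With all cells summed it was within 2-fold in all 4 comparisons apart from TMM scaling. Without the highest cells Dgat1 was 2.03-fold higher in basal-marked than in adult basal cells. It was then 1.27-fold lower in luminal-marked than in adult luminal cells. Dgat2 was at 28.3 CPM in adult luminal and 8.97 CPM in luminal-marked cells, 3.15-fold lower, with a read in 9 of 41 and 3 of 26 cells. Gpam, the mitochondrial acyltransferase of the first step, was nearly absent, with 0 reads in adult basal cells, 115 in adult luminal cells, of which 96.5% lay in cell number 31, and between 1 and 5 reads in each of the 3 pregnancy classes.

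Among the regulators and sterol genes, Srebf1 was higher and Sqle lower in luminal-marked than in adult luminal cells, and the other 4 were within 2-fold. Srebf1, the SREBP gene tied to fatty acid synthesis, was at 30.2, 33.3, 36.2, 26.1 and 79.6 CPM, and 2.39-fold higher in luminal-marked than in adult luminal cells, where cell number 78 held 46.6% of the luminal-marked reads and the ratio without the highest cells was 1.68-fold. Srebf2, the SREBP gene tied to sterols, was at 22.9, 17.1, 14.4, 3.32 and 13.5 CPM. Insig1, which retains SREBP precursors in the endoplasmic reticulum, was at 12.4, 15.2, 25.8, 19.3 and 16.0 CPM and within 2-fold of adult luminal cells in luminal-marked cells, at a ratio of 1.05. Hmgcs1, which starts the sterol pathway, was at 214, 176, 402, 272 and 187 CPM. It was present in 13 of 25 basal-marked and 15 of 26 luminal-marked cells and was 2.15-fold lower in the latter, although its log2 ratio was 0.58 up to title number 55 and -2.88 above it. Sqle, squalene epoxidase, was at 93.3 CPM in adult basal, 51.1 in adult luminal, 30.3 in basal-marked, 22.4 in both-marked and 12.7 CPM in luminal-marked cells, where 3 of 26 cells held it and 69.4% of the reads lay in cell number 68. It was 4.02-fold lower in luminal-marked than in adult luminal cells, and 10.4-fold lower without the highest cells. Fdft1, squalene synthase, was at 30.2, 38.3, 26.6, 17.4 and 24.7 CPM and within 2-fold in all 4 comparisons. Hmgcs1 and Acsl1, the genes with TCACNCCAC in a printed window, had log2 ratios of luminal-marked to adult luminal cells of 0.09 and 2.30.

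The both-marked cells, with Krt14 and Acta2 beside luminal markers, held a list share between those of the basal-marked and luminal-marked cells (0.972% against 0.345% and 1.52%). Btn1a1 was present in 34 of 41 of them and Fabp3 in 33, against 3 and 5 of the 25 basal-marked cells. Their summed CPM was below that of luminal-marked cells for Plin2 (1223 against 1908), Scd1 (1263 against 2221), Btn1a1 (502 against 611) and Acsl1 (194 against 369), and the cells of the classes overlapped for all 4. Basal-marked cells held lipid genes together with some casein reads, with Csn2 in 22 of 25 cells at a median of 296 CPM, against 3 of 85 adult basal cells. Of their 12 cells with Plin2, 11 also held Csn2. Whether such reads came from RNA outside the cell was not tested.

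Across cells, the level of the list went with the share of reads in 8 milk genes (Wap, Lalba, Glycam1 and the caseins Csn2, Csn3, Csn1s1, Csn1s2a and Csn1s2b). With lipid reads taken as CPM of the reads outside the milk genes, Spearman's rho was 0.69 over 96 pregnancy cells, 0.79 over 41 both-marked, 0.77 over 26 luminal-marked, -0.23 over 25 basal-marked and 0.74 over 41 adult luminal cells. These points are cells of the same groups and share depth and the base of reads, and may share animals, so rho is given as a description. By gene, rho over the 96 pregnancy cells was 0.92 for Btn1a1, 0.90 for Fabp3, 0.82 for Cidea, 0.81 for Scd1, 0.76 for Plin2, 0.75 for Acsl1 and 0.73 for Xdh. Fabp4 (-0.10), Dgat2 (-0.21), Fdft1 (0.02), Hmgcs1 (0.03) and Scd2 (0.01) had values near or below 0. Within the luminal-marked cells alone, Fabp3 (0.89), Btn1a1 (0.89), Cidea (0.79), Scd1 (0.78), Acaca (0.78) and Mfge8 (0.76) kept the highest values. In adult luminal cells the highest were Lpin1 (0.64), Thrsp (0.62), Acsl1 (0.61) and Scd1 (0.58).

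**Figure D4:**
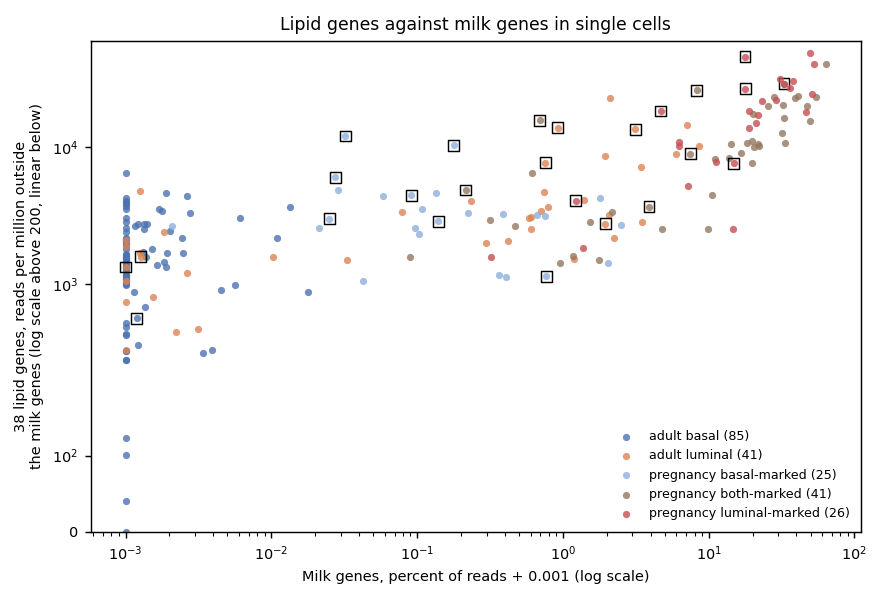
Each point is 1 cell. The horizontal axis is the percent of reads in the 8 milk genes plus 0.001, on a log scale, and the vertical axis the reads of the 38 lipid genes as CPM of the reads outside the milk genes, on a log scale above 200 and linear below. Squares mark cells with 3 or more markers of another cell type, and the 4 pregnancy cells with neither content are not drawn. Both-marked and luminal-marked cells with the highest milk share lie at the top right, while basal-marked cells lie lower, at milk shares mostly under those of the other pregnancy cells.

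Of 57 further genes of lipid metabolism chosen by name, 49 had a ratio between the adult sorts, with 20 higher in luminal cells (40.8%, beside 36% of the background) and 6 lower (12.2%, beside 23.9%). Their median log2 ratio was 0.50, against 0.35 over all genes. Slc27a1 (1.81), Elovl7 (4.25), Lipe (4.81) and Lss (2.29) had large log2 ratios in favor of adult luminal cells. From adult luminal to luminal-marked pregnancy cells 11 of 48 were higher (22.9%, beside 17.2%) and 16 lower (33.3%, beside 42.8%), with a median of -0.47, against -0.75 over all genes. Pparg, the nuclear receptor of fat cell differentiation, was higher (3.50), while Acsl5 (-2.83), Lpin2 (-3.12) and Cyp51 (-2.91) were lower. Between basal-marked and adult basal cells 11 of 43 were higher (25.6%, beside 29.1%) and 15 lower (34.9%, beside 25.3%), with Vldlr (3.20), Fads3 (2.48) and Agpat5 (2.04) higher and Lpin2 (-2.16) lower. Between luminal-marked and basal-marked pregnancy cells 19 of 47 were higher (40.4%, beside 22.9%) and 11 lower (23.4%, beside 38.1%). The citrate carrier Slc25a1 (5.21), Elovl7 (4.77) and Abhd5 (3.52), a coactivator of the lipase encoded by Pnpla2, were higher there, and Ppara (-3.41) was lower. Few reads lay on 1 side of some of these ratios. Basal-marked cells had 2 reads of Slc25a1 and 5 of Elovl7, and luminal-marked cells had 15 of Ppara.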

How the data were processed

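The authors mapped read pairs of each Fluidigm C1 library (Nextera XT, NextSeq 500) to mm10 with Subread 1.4.6 and deposited 1 table per cell of featureCounts counts by Entrez gene and of gene lengths, on Rsubread's RefSeq annotation. Of 27179 IDs, those without a symbol (1904, 1.20% of reads), 15 mitochondrial and 120 ribosomal genes were dropped. No 2 cells had identical counts, and no doublet caller was run. The deposited table of the whole series was not used. Counts were summed per group and scaled to CPM, or to RPKM by the deposited length, with exact Poisson and Clopper-Pearson intervals. Python 3.11.15, numpy 2.4.6, scipy 1.17.1 and, for TMM, edgeR 4.0.16 in R 4.3.3 were used. The ratio calculation was run on simulated counts with counting error only and no spread between cells. Such a run checks the calculation and cannot show how precise the ratios are in real cells. Values were named for 17 fixed members and for the 5 highest and 5 lowest ratios per comparison at 20 CPM or more. Sterol, Acsl1 and other members were described as well, so that each of the 38 is accounted for. Members, lists and the division at title number 55 were chosen with earlier results of these data known. Coordinates are those of GRCm38.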

Additional observations from a re-analysis of the deposited data

How the results depend on the processing

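No paired analysis was possible because cell numbers in the labels only name cells and no test was made. Of 185 values recomputed for the comparisons, 152 stayed within their limits. The cause of the other moves was not tested. The list share was 0.180% in adult basal, 0.427% in adult luminal and 0.890% in pregnancy cells with every cell weighted equally, and 0.172%, 0.335% and 0.988% without cells with markers of other types. With milk genes out of the total it was 0.403% in adult luminal and 1.36% in pregnancy cells, with the study's own minimums 0.384% in adult luminal cells, and in pregnancy 0.821% up to and 1.19% above title number 55. Lower members of adult luminal over adult basal numbered 9 under TMM, beside 28.0% of all genes. They numbered 5 with equal weights (24.2%), 5 without other types (26.0%), 1 at a mean of 10 CPM (19.0%) and 5 without the highest cells (23.4%). For luminal-marked over adult luminal, 9 were lower above number 55 (57.1% of all genes). The median under TMM was 1.87, against -0.10 over all genes. For basal-marked over adult basal, 13 were higher up to number 55 (beside 29.6% of all genes). The median there was 0.45, against -0.03 over all genes. Above it 14 were lower (41.0%), with a median of 0.24, against -0.57 over all genes. Without the highest cells 11 were lower (32.0%). For luminal-marked over basal-marked, 2 were lower with milk genes out (beside 30.2% of all genes), 2 under TMM (29.9%) and 3 at 5 luminal markers (35.2%). The median was 2.15 above number 55, against -0.41 over all genes, and 1.89 without the highest cells, against -0.21. With 5 or more reads to count as present, median cells held 3, 7 and 10 members. Basal-marked cells numbered 15 at 3 luminal markers, and luminal-marked cells 17 without thinning.

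Of 862 values of single members, 15 changed sign. Fabp4 in adult luminal over adult basal was -2.04 without other types. Up to number 55, log2 ratios were -0.42 for Mfge8 in luminal-marked over adult luminal, -0.13 for Fabp3, -3.21 for Fasn and -1.63 for Xdh in basal-marked over adult basal, and -0.05 for Scd2 (-0.053), 0.12 for Elovl5, -0.41 for Mfge8 and 0.58 for Hmgcs1 in luminal-marked over basal-marked. Above it they were -0.80 for Lpl and -5.39 for Acly in basal-marked over adult basal and -0.81 for Fasn in luminal-marked over basal-marked. Without the highest cells Fasn (-1.34) and Xdh (-1.34) turned in basal-marked over adult basal, and at 3 luminal markers Fabp5 (1.42) did in luminal-marked over basal-marked. Depth limits genes under 10 CPM, most of all in the 25 basal-marked cells, whose median was 132118 reads.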
